A study of Mus musculus with 4 samples.

Results

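Group 2 innate lymphoid cells (ILC2) were examined among the CD45.2-sorted lung leukocytes of allergen-challenged mice, 137 barcodes of 18985 in all. They were selected on RNA: barcodes had to show 200 genes or more, with mitochondrial UMIs (unique molecule counts) at 10% or less, and were taken when at least 3 of the 10 genes Il13, Il5, Areg, Gata3, Il1rl1, Calca, Hs3st1, Il17rb, Rnf128 and Ptpn13 were detected. They also had to lack Cd3e, Cd79a, C1qa, Ncr1, Mcpt8 and Csf3r, genes of T cells, B cells, macrophages, NK cells, basophils and neutrophils, and to show fewer than 2 of the dendritic cell genes Xcr1, Clec9a, Cd209a and Fscn1. The library labelled Plaur KO gave 69 ILC2 and the library labelled WT gave 68.

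The KO-labelled library is labelled as coming from Plaur-/- mice, Plaur being the gene of the urokinase receptor uPAR, and the WT-labelled library as coming from C57B6/J mice. Both genotypes were given LPS/OVA on days 0 and 7 to sensitize them and were challenged by inhaled OVA on day 14, so no unchallenged mouse is part of the comparison. The design counts 8 mice of each genotype, and how many entered a library is not stated there. The labels call the sorted cells circulating leukocytes in one field and total lung cell lysate in another. Each genotype had 1 RNA library (10x 3′ v3.1) and 1 library of 5 antibody tags read on the same barcodes, so no difference between genotypes could be tested, and every interval is a 95% interval of counting error that holds neither the spread between mice nor the crowding of UMIs in single cells. The deleted stretch of Plaur is not described in the labels, so its 3′ RNA tags, which were present in both libraries, do not check them.

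ILC2 are lymphocytes without antigen receptors that sit in mucosal tissues such as the lung. Epithelial alarmins, IL-33 through its receptor ST2 (encoded by Il1rl1), IL-25 and TSLP, activate them, and the transcription factors GATA3 and RORα set their identity. Their IL-5 sustains eosinophils, their IL-13 drives mucus production and airway hyperreactivity, and amphiregulin (Areg) acts in tissue repair.

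Il13 and Il5 lie in the type 2 cytokine locus of mouse chromosome 11, with the gene body of Rad50 between them (RefSeq, GRCm38.p6). Il13 spans chr11:53631323-53634702 on the minus strand and Il5 spans chr11:53720794-53725103 on the plus strand. Their promoters are shown because both cytokines are described cell by cell, and because GATA3, the factor detected in nearly every ILC2, is known for binding GATA sequences. Each window runs from 250 bases before to 50 bases after the annotated start, 5′ to 3′ on the gene's own strand, at chr11:53634653-53634952 for Il13 and chr11:53720544-53720843 for Il5. Capitals mark GATAA, searched together with its reverse complement TTATC.
Il13: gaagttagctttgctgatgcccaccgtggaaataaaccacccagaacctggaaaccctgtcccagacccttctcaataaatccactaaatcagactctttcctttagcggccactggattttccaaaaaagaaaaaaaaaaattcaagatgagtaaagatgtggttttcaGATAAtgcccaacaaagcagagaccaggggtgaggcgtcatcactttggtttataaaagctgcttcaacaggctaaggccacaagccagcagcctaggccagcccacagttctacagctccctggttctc
Il5: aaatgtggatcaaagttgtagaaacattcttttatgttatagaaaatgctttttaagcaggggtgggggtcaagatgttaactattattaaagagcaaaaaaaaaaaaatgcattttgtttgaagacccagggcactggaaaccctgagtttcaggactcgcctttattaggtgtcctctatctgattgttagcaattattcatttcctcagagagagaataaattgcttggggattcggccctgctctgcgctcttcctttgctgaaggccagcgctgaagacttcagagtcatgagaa
The Il13 window held 1 match, 80 bases before the start, and the Il5 window held no match to GATAA or TTATC. GATA followed by other bases was not searched. The Il5 window does hold TATC, the reverse complement of GATA, so the lack of a match does not mean that it lacks GATA sequences. Of all 32851 mouse promoter windows of the same length, 25.4% held GATAA or TTATC, so a match is common and describes the letters only.

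The 2 libraries held 47442215 (KO-labelled) and 42913843 (WT-labelled) gene UMIs on 10102 and 9024 deposited barcodes, and 10041 and 8944 barcodes passed the filter on genes and mitochondrial UMIs. KO-labelled ILC2 had a median of 3098 UMIs and 1496 genes, and WT-labelled ILC2 had a median of 3519.5 UMIs and 1593.5 genes. The mitochondrial share of a single ILC2 stayed at or below 2.86% in KO-labelled and 3.25% in WT-labelled cells. The libraries shared 16 barcode sequences, none of them an ILC2 barcode. Scrublet called 4.55% of KO-labelled and 2.91% of WT-labelled barcodes doublets, and none of these was an ILC2.

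ILC2 made up 0.687% of the KO-labelled barcodes (exact Clopper-Pearson interval 0.535 to 0.869%) and 0.760% of the WT-labelled barcodes (0.591 to 0.963%). The ratio of KO-labelled over WT-labelled shares was 0.904 (0.637 to 1.28), an interval of counting error that includes equal shares. With 1 library per genotype, a difference in frequency between genotypes could not be tested. Among barcodes without Csf3r, the shares were 1.37% and 1.21%, and the log2 ratio turned to 0.18 (-0.33 to 0.68). This leaves neutrophils out of the denominator, but also other cells: 11.8% of KO-labelled and 7.31% of WT-labelled B cells had a Csf3r UMI. Of the barcodes with at least 3 of the 10 genes, 18 KO-labelled and 10 WT-labelled had a Csf3r UMI and were left out by the rule. With each excluded gene allowed 1 UMI, 90 and 73 barcodes were taken, and the log2 ratio of shares was 0.14 (-0.33 to 0.60).

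The median number of the 10 genes per cell was 5 in KO-labelled and 6 in WT-labelled ILC2. Of the KO-labelled ILC2, 11 had exactly 3 of them, 11 had 4 and 47 had 5 or more, and of the WT-labelled ILC2, 12 had exactly 3, 10 had 4 and 46 had 5 or more. Just outside the rule, 59 KO-labelled and 55 WT-labelled barcodes had exactly 2. The ILC2 factor Rora, which the rule did not use, was detected in 10 of the 11 KO-labelled and 9 of the 12 WT-labelled ILC2 with 3 genes, against 35 of the 59 and 33 of the 55 barcodes with 2. The T cell receptor subunit gene Cd3d was found in 4 of 11 KO-labelled and 8 of 12 WT-labelled ILC2 with 3 genes, in 39 of 59 and 30 of 55 barcodes with 2, and in 2 of 47 and 1 of 46 ILC2 with 5 or more.

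The label was checked against RNA of other cell types, among which Cd79a, Mcpt8, Ncr1, Csf3r, Cd3e and C1qa were 0 by the rule. B cell, basophil and mast cell markers gave 0 UMIs in KO-labelled ILC2 and 3 in WT-labelled ILC2, and the 8 NK cell markers gave 6 and 5 UMIs. The 5 eosinophil markers gave 4 UMIs in 2 KO-labelled and 3 in 2 WT-labelled ILC2, with Epx, Prg2 and Prg3 at 0. That was 15.9 and 10.1 CPM, against 15.3 and 23.6 CPM in other barcodes, so these low counts separate little. A T cell UMI (Cd3d, Trac, Cd4, Cd8a, Cd8b1 or Foxp3) was present in 11 of the 69 KO-labelled and 16 of the 68 WT-labelled ILC2, and 9 and 13 of these had only 3 or 4 of the 10 genes. The whole list of 11 T cell markers had 245 UMIs in 48 KO-labelled and 257 in 53 WT-labelled ILC2 (975 and 867 CPM, counts scaled to the UMI total of the summed cells, against 514 and 703 CPM in other barcodes), with Cd3e, Cd8a and Cd8b1 at 0. Markers of γδ T cells had 24 UMIs in 18 KO-labelled and 31 in 17 WT-labelled ILC2, with Trdc at 0. The regulatory T cell genes Foxp3 and Ikzf2 had 96 UMIs in 28 and 211 in 36 (382 and 712 CPM, against 65.0 and 90.4 CPM in other barcodes). The part of these T cell UMIs in the results was not tested. The 5 neutrophil markers summed to 42 UMIs in 31 KO-labelled ILC2 and 11 UMIs in 8 WT-labelled ILC2, with Csf3r and Cxcr2 at 0.

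The largest barcode of each library stood apart. It held 27835 UMIs in the KO-labelled and 37453 UMIs in the WT-labelled library, of which 15638 and 21295 were Scgb1a1, the secretoglobin of airway club cells. Both showed 3 of the 10 genes but had 0 UMIs of Gata3, Il1rl1, Rora and Ptprc (CD45), which goes against their label as ILC2. Another KO-labelled barcode, with 12839 UMIs, held 72 UMIs of Ccl24 and 46 of the dendritic cell gene Cd209a, beside 6 of Gata3. A WT-labelled barcode with 11075 UMIs held 14 UMIs of Cd209a, beside 1 of Gata3. In all, 2 KO-labelled and 3 WT-labelled ILC2 exceeded 10000 UMIs and held 16.2% and 20.2% of the ILC2 UMIs. Results are therefore also given without these 5 barcodes and, where it alters the value, without the T cell UMI barcodes too, which leaves 56 KO-labelled and 50 WT-labelled cells.

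**Figure D1:**
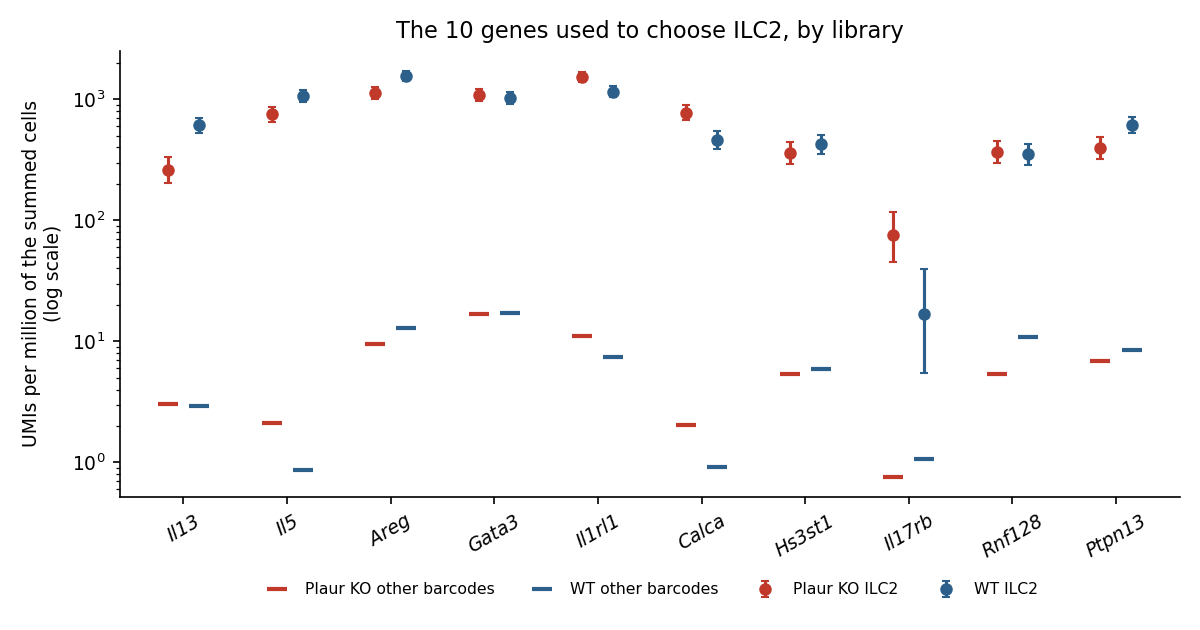
Level of the 10 genes of the rule in summed ILC2, in CPM (UMIs scaled to the ILC2 total of the library) on a log axis, with 95% Poisson intervals, for the KO-labelled (left of each pair) and WT-labelled library, and the level in all other filtered barcodes of the same library (dashes). Il13 lay at 263 in KO-labelled and 611 in WT-labelled ILC2, and all other barcodes lay at 16.7 or below for these genes in the KO-labelled and 17.1 or below in the WT-labelled library.

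The genes that chose the cells are described first, without reading their height over other cells as a finding. Gata3, the identity factor, had 273 UMIs in 66 of 69 KO-labelled ILC2 and 302 UMIs in 66 of 68 WT-labelled ILC2, or 1087 and 1019 CPM. KO-labelled over WT-labelled, the log2 ratio was 0.09 (-0.15 to 0.33). In B cells, a type that should lack it, 1.15% of KO-labelled and 0.53% of WT-labelled barcodes had a Gata3 UMI, at median depths of 2285 and 2456 UMIs.

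Il1rl1, which encodes the IL-33 receptor ST2, had 384 UMIs in 62 KO-labelled ILC2 (1529 CPM) and 343 UMIs in 62 WT-labelled ILC2 (1158 CPM). The log2 ratio was 0.40 (0.19 to 0.62), and 0.35 without the ILC2 over 10000 UMIs. The IL-25 receptor gene Il17rb was sparse, with 19 UMIs in 9 KO-labelled cells and 5 UMIs in 3 WT-labelled cells, a log2 ratio of 2.16 with a wide interval (0.70 to 3.94).

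Il13 was concentrated in few cells and was lower in the KO-labelled library. It had 66 UMIs in 10 of 69 KO-labelled ILC2 (263 CPM, 203 to 334) and 181 UMIs in 17 of 68 WT-labelled ILC2 (611 CPM, 525 to 707), a log2 ratio of -1.22 (-1.65 to -0.80). One KO-labelled cell alone held 37 of the 66 UMIs, while the highest WT-labelled cell held 47 of 181. Without the 2 highest cells of each library, 20 UMIs were left in KO-labelled and 103 in WT-labelled ILC2. Without the ILC2 over 10000 UMIs alone, 66 and 180 UMIs were left, a log2 ratio of -1.28. In ILC2 with neither over 10000 UMIs nor a T cell UMI, Il13 had 15 UMIs in the KO-labelled and 156 in the WT-labelled library, and the log2 ratio was -3.31 (-4.18 to -2.54). The KO-labelled cell with 37 UMIs was among those with a T cell UMI. The lower ratio thus rests on leaving out few cells, a choice made after seeing the data. The share of cells with an Il13 UMI was 14.5% (exact interval 7.17 to 25.0%) in KO-labelled and 25.0% (15.3 to 37.0%) in WT-labelled ILC2, against 0.0716% and 0.0589% of B cells. At an equal 1000 UMIs per cell these ILC2 shares were 10.1% and 17.6%, and the intervals of the unthinned shares overlap.

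Il5, the eosinophil growth factor, was found in 30 cells of each library, with a lower summed level in the KO-labelled one. It had 189 UMIs in 30 KO-labelled ILC2 (752 CPM) and 317 UMIs in 30 WT-labelled ILC2 (1070 CPM), a log2 ratio of -0.51 (-0.78 to -0.24). Cells with Il5 held a median of 5 UMIs of it in the KO-labelled and 4.5 in the WT-labelled library, and the highest cell held 26 and 46. Without the ILC2 over 10000 UMIs the ratio was -0.40. Thinned to 1000 UMIs per cell, the shares of cells with Il5 were 33.3% in KO-labelled and 26.5% in WT-labelled ILC2, and the log2 ratio of summed UMIs was 0.08. WT-labelled ILC2 with Il5 had a median of 3935 UMIs, against 3353 in those without, and for KO-labelled ILC2 the values were 3009.5 and 3227.

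Il13 and Il5 are both genes of the rule, so their overlap in cells describes the selection as well. Of the ILC2 with Il13, 7 of 10 KO-labelled and 15 of 17 WT-labelled cells also had Il5, whereas Il5 was found in 23 of 59 KO-labelled and 15 of 51 WT-labelled cells without Il13. Neither cytokine was detected in 36 KO-labelled and 36 WT-labelled ILC2.

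Areg, the EGF receptor ligand amphiregulin, was the most widely detected effector. It had 285 UMIs in 42 KO-labelled cells (1135 CPM) and 463 UMIs in 49 WT-labelled cells (1562 CPM), with a log2 ratio of -0.46 (-0.68 to -0.25) that was -0.54 without the ILC2 over 10000 UMIs. Calca, which encodes the neuropeptide CGRP, went the other way, with 195 UMIs in 23 KO-labelled cells (776 CPM) and 137 UMIs in 24 WT-labelled cells (462 CPM). Its log2 ratio was 0.75 (0.43 to 1.07), and 0.98 without the ILC2 over 10000 UMIs, 1 of which held 26 of the WT-labelled Calca UMIs. Calca and Il5 shared cells in equal numbers, 14 in each library.

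The other 3 genes of the rule were spread over about as many cells. The sulfotransferase gene Hs3st1 had 91 UMIs in 39 KO-labelled and 126 in 37 WT-labelled cells (log2 ratio -0.23, -0.64 to 0.17), and 9.89% of KO-labelled and 8.54% of WT-labelled B cells also had it. Rnf128, the ubiquitin ligase GRAIL, had 93 UMIs in 37 KO-labelled and 104 in 35 WT-labelled cells (0.08, -0.34 to 0.49). The phosphatase gene Ptpn13 had 100 UMIs in 44 KO-labelled and 182 in 53 WT-labelled cells (-0.63, -0.99 to -0.27).

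**Figure D2:**
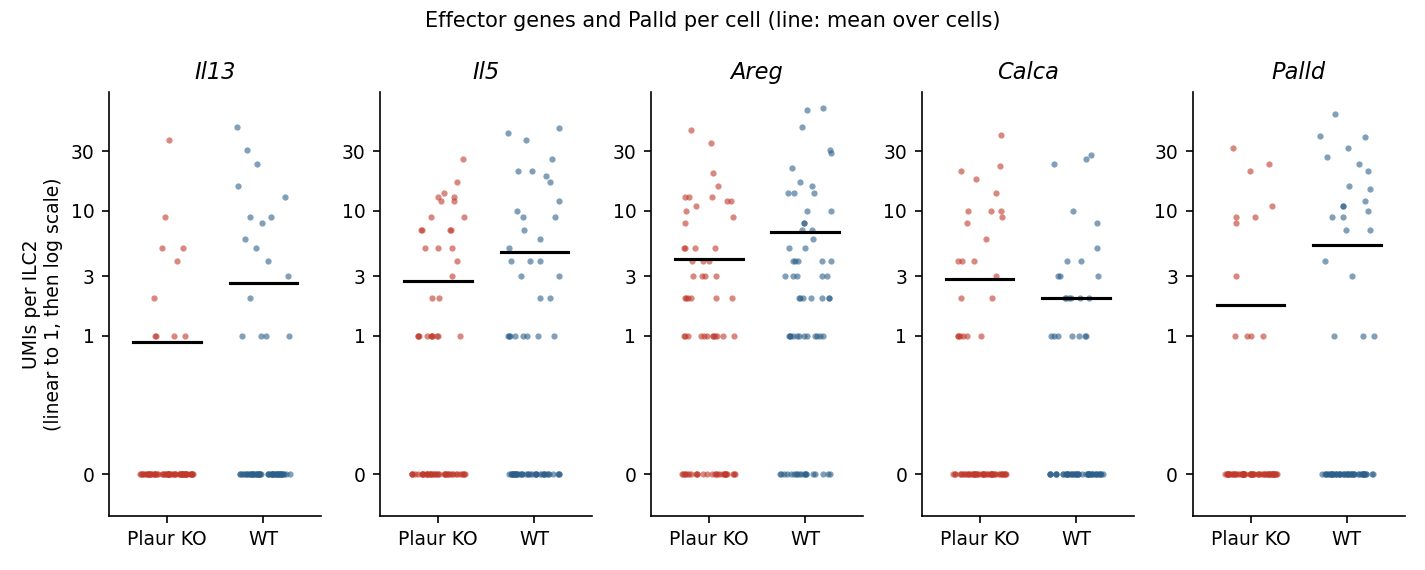
UMIs of 4 effector genes and Palld in each of the 69 KO-labelled (left) and 68 WT-labelled (right) ILC2, with the vertical axis linear up to 1 and logarithmic above it, and lines at the mean over cells. Most cells are at 0 for Il13 and Palld, and the highest Il13 cells hold 37 UMIs in the KO-labelled and 47 in the WT-labelled library.

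Across the transcriptome, 4126 genes had at least 20 UMIs over both ILC2 sums. Of these, 206 (4.99%) had a log2 ratio of at least 1 and 155 (3.76%) of at most -1, and for 140 and 91 of them the interval also excluded 0. The split depended on scaling: higher genes were 57.1% of those past the 2-fold limit with totals, 46.5% with TMM factors and 39.8% with DESeq2 size factors, which moved the median of all genes by -0.14. The median of all genes with at least 10 UMIs was 0.06 with totals. Gene lists are described by their members past the 2-fold limit, read against these percentages.

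**Figure D3:**
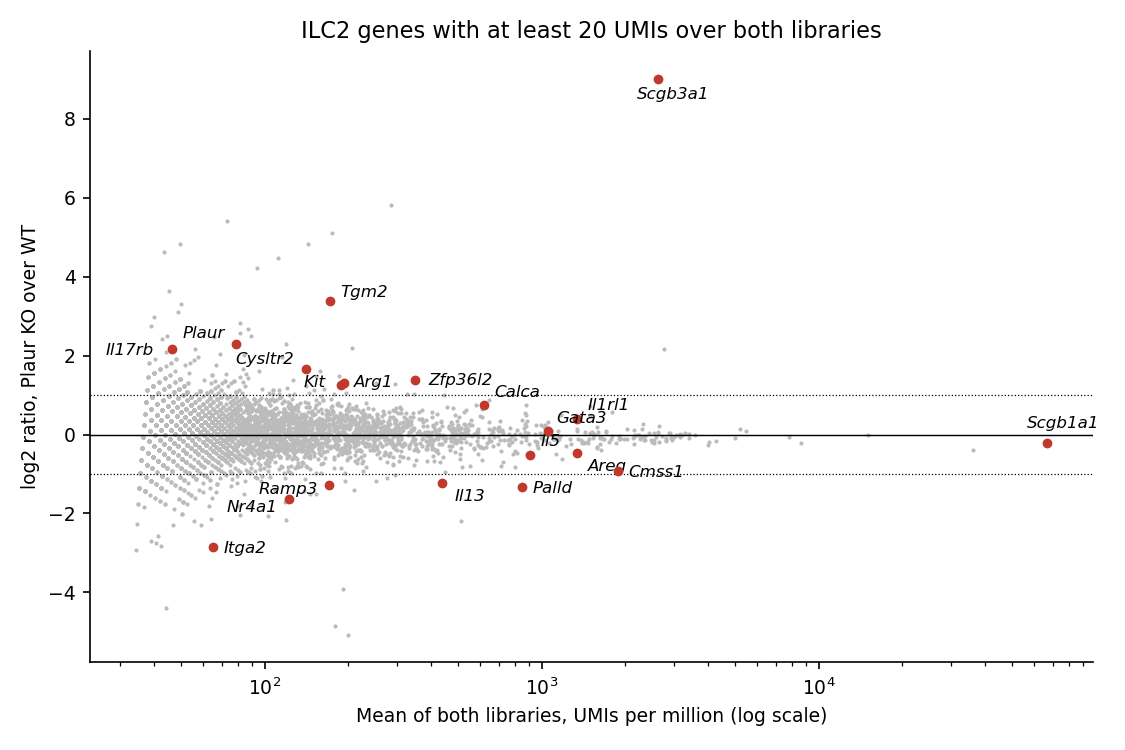
KO-labelled over WT-labelled log2 ratio in ILC2 against the mean level in CPM (log axis) for the 4126 genes with at least 20 UMIs, dotted lines at 1 and -1, with genes named in the text in red. Scgb3a1, with 0 UMIs in WT-labelled ILC2, is drawn at 9.02, its ratio against a floor of 3 UMIs (lower bound of its interval 8.72), and Palld and Il13 lie at -1.33 and -1.22.

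Of the 16 measured effector genes, 4 were past the limit upward and 2, Retnla and the rule gene Il13, downward, more in both directions than over all genes, and several rested on 1 barcode. Ccl4, a chemokine of activated lymphocytes and myeloid cells, had 88 UMIs in KO-labelled ILC2, of which 87 lay in 1 barcode, and 0 in WT-labelled ILC2. Retnla, made by epithelial cells and macrophages, had 46 UMIs in KO-labelled ILC2 and 249 in WT-labelled ILC2, 248 of them in the barcode with 21295 Scgb1a1 UMIs. Arg1, the arginase of ILC2 and alternatively activated macrophages, was spread over cells: it had 69 UMIs in 32 KO-labelled and 33 UMIs in 19 WT-labelled ILC2 (275 and 111 CPM), a log2 ratio of 1.30 (0.68 to 1.95) and 1.28 without the ILC2 over 10000 UMIs. Arg1 was also higher in the other barcodes of the KO-labelled library, at 18.4 CPM against 6.02 CPM in WT-labelled ones.

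Cxcl2, a neutrophil-attracting chemokine, had 117 UMIs in 17 KO-labelled and 68 UMIs in 14 WT-labelled ILC2 (log2 ratio 1.02, 0.58 to 1.47, 0.49 without the ILC2 over 10000 UMIs, and 1.18 when those with T cell UMIs were left out too). Cxcl3, its relative, had 38 UMIs in 7 KO-labelled and 8 in 4 WT-labelled cells (2.49, lower bound 1.36). Both are abundant outside ILC2, with Cxcl2 at 2511 CPM in other KO-labelled and 1518 CPM in other WT-labelled barcodes. The neutrophil marker sum given above was higher in KO-labelled ILC2 as well, and its part in these values was not tested.

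Il4 had 39 UMIs in 8 KO-labelled and 72 in 7 WT-labelled ILC2, with 84.6% and 87.5% of them in the 2 highest cells, and a log2 ratio of -0.65 (-1.25 to -0.06). Without barcodes over 10000 UMIs or with T cell UMIs it had 7 and 67 UMIs and a ratio of -3.19, and with each excluded gene allowed 1 UMI the sign turned, to 0.62. The KO-labelled cell with 31 of the 39 Il4 UMIs was among those with a T cell UMI. Csf2, which encodes GM-CSF, had 40 UMIs in 12 KO-labelled and 46 in 12 WT-labelled cells (log2 ratio 0.04, -0.61 to 0.68). The RANK ligand gene Tnfsf11 had 22 UMIs in 16 KO-labelled and 14 in 13 WT-labelled cells (0.89, -0.14 to 1.97), and Lif had 29 in 16 and 22 in 15 (0.64, -0.21 to 1.51). The median of the 18 effector genes with at least 10 UMIs was 0.69, and 0.07 in ILC2 with neither over 10000 UMIs nor a T cell UMI.

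Of 22 measured alarmin and cytokine receptor genes, 2 were past the limit upward (the rule gene Il17rb and Csf2rb) and none downward, with a median of -0.16 over 24 genes. With the genes of the rule left out it was 1 of 20, beside 4.99% over all genes. Csf2rb rested on 1 KO-labelled cell with 12 of its 14 UMIs. The IL-2 receptor α chain gene Il2ra had 265 UMIs in 54 KO-labelled and 337 in 60 WT-labelled ILC2 (1055 and 1137 CPM; log2 ratio -0.11, -0.35 to 0.13). Il7r, the receptor through which IL-7 and TSLP sustain ILC2, had 136 UMIs in each library (0.24, -0.12 to 0.59), and the TSLP receptor chain gene Crlf2 had 14 in KO-labelled and 28 in WT-labelled ILC2 (-0.76, -1.80 to 0.21).

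Among the 12 measured neuropeptide and lipid receptor genes, 1 was past the limit in each direction. Cysltr2, a receptor for cysteinyl leukotrienes, had 54 UMIs in 25 KO-labelled cells (215 CPM) and 20 UMIs in 16 WT-labelled cells (67.5 CPM), a log2 ratio of 1.67 (0.91 to 2.49). The other leukotriene receptor gene, Cysltr1, was level, with 122 UMIs in 41 KO-labelled and 137 in 43 WT-labelled ILC2 (0.07, -0.29 to 0.43). Ramp3, a partner of the calcitonin-family receptors, had 25 UMIs in 10 KO-labelled cells (99.5 CPM) and 72 UMIs in 24 WT-labelled cells (243 CPM), a log2 ratio of -1.29 (-2.01 to -0.61). Ramp1, the partner that forms the CGRP receptor, had 65 UMIs in 36 and 73 in 35 cells (0.07, -0.43 to 0.57), and its binding chain gene Calcrl had 11 and 18 UMIs. Cysltr2 and Ramp3 kept these signs under the 8 alternatives that altered any value.

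Of 32 measured ILC2 transcription factor genes, 2 were past the limit upward (Runx3 and Xbp1) and none downward, and the median of 35 was 0.03. Rora had 270 UMIs in 65 KO-labelled and 338 in 59 WT-labelled ILC2 (1075 and 1141 CPM; -0.09, -0.32 to 0.15). Xbp1, a factor of the unfolded protein response, had 39 UMIs in 25 KO-labelled and 21 in 15 WT-labelled cells (1.13, 0.33 to 1.97). Pparg, which directs lipid uptake, had 141 UMIs in 39 and 103 in 38 cells (561 and 348 CPM; 0.69, 0.31 to 1.07). Tox was lower in KO-labelled ILC2, with 186 UMIs in 51 cells against 307 in 57 WT-labelled cells (-0.48, -0.76 to -0.22), and so was Irf4, with 21 UMIs in 12 against 49 in 20 (-0.98, -1.80 to -0.22).

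Surface and costimulation genes gave 1 member past the limit upward and 3 downward of 27, with a median of 0.01 over 31. Kit, the stem cell factor receptor, had 67 UMIs in 32 KO-labelled cells (267 CPM) and 33 UMIs in 24 WT-labelled cells (111 CPM), a log2 ratio of 1.26 (0.64 to 1.91), and no KO-labelled cell held more than 9 of the UMIs. Klrg1, a marker of activated ILC2, was level, with 35 UMIs in 23 KO-labelled and 42 in 22 WT-labelled cells (-0.02, -0.71 to 0.66), as were Thy1, Ly6a and Icos with ratios of 0.38, 0.15 and -0.10 whose intervals held 0. The lower genes were Tnfrsf4, Slamf1 and Cd274, and all of them lost most of their WT-labelled UMIs when barcodes over 10000 UMIs or with T cell UMIs were left out. Tnfrsf4 (OX40) had 44 UMIs in KO-labelled and 112 in WT-labelled ILC2 (-1.11, -1.65 to -0.59), but 2 and 1 without the barcodes over 10000 UMIs or with T cell UMIs, and its sign turned.

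Of 30 measured immediate early genes, 2 were past the limit upward and 4 downward, with a median of -0.04 over 35. Zfp36l2, which destabilizes mRNA, had 127 UMIs in 45 KO-labelled and 58 in 29 WT-labelled ILC2 (1.37, 0.91 to 1.84). It was also higher in B cells of the KO-labelled library, at 430 CPM against 249 CPM in WT-labelled B cells. Fosb, an AP-1 subunit, had 90 UMIs in 31 KO-labelled and 43 in 24 WT-labelled ILC2 (1.30, 0.76 to 1.86), against 85.6 and 81.0 CPM in B cells. The orphan receptor gene Nr4a1 had 15 UMIs in 11 KO-labelled and 55 in 23 WT-labelled ILC2 (-1.64, -2.57 to -0.79), and 99.4 and 91.2 CPM in B cells. Nr4a3, Fosl2 and Gadd45g were the other lower members, at -1.41, -1.03 and -1.18. Nr4a3 stood at -0.12 with each excluded gene allowed 1 UMI and at -2.998 without barcodes over 10000 UMIs or with T cell UMIs. Fosl2, with 49 UMIs in 32 KO-labelled and 118 in 49 WT-labelled cells (-1.54 to -0.54), was the most widely detected of them.

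The list of NF-κB and survival feedback genes had 1 of 27 members past the limit upward (Socs2) and 4 downward (Relb, Icam1, Rel and Cd83), with a median of -0.04 over 31. Its best measured member, Nfkb1, had 592 UMIs in KO-labelled and 815 in WT-labelled ILC2 (-0.22, -0.38 to -0.07). Rel had 19 UMIs in 13 KO-labelled and 48 in 16 WT-labelled cells (-1.10, -1.95 to -0.31). Cish, a target of cytokine signalling through STAT5, had 89 UMIs in 40 and 146 in 58 cells (-0.48, -0.87 to -0.09).

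Metabolic, migration, interferon and cell cycle genes had medians between -0.09 and 0.34, and the migration median of 0.34 turned to -0.11 in thinned cells. Of 26 measured metabolism genes, 3 were past the limit upward (Arg1, Mt1 and Mt2) and 1 downward (Gclc). The metallothionein genes Mt1 and Mt2 owed 92 of 105 and 35 of 36 KO-labelled UMIs to 1 barcode, and Gclc owed 42 of 64 WT-labelled UMIs to 1 barcode. Of 16 migration genes, Adam8 was past the limit upward and the integrin gene Itga2 downward, with 4 UMIs in 4 KO-labelled and 34 in 12 WT-labelled cells (-2.85, -4.80 to -1.36). Ccr8, a chemokine receptor of type 2 lymphocytes, had 27 UMIs in 19 and 18 in 17 cells (0.82, -0.09 to 1.77). Of 25 type I interferon genes 1 (Trim30a) was past the limit upward, of 27 interferon-γ and MHC class I genes 1 (Iigp1) downward, and of 7 cell cycle genes 1 (Mcm4) downward. Of the 3 measured ILC1 and ILC3 genes, Il17f was past the limit upward, with 47 UMIs in 2 KO-labelled cells and 0 UMIs in WT-labelled ILC2.

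**Figure D4:**
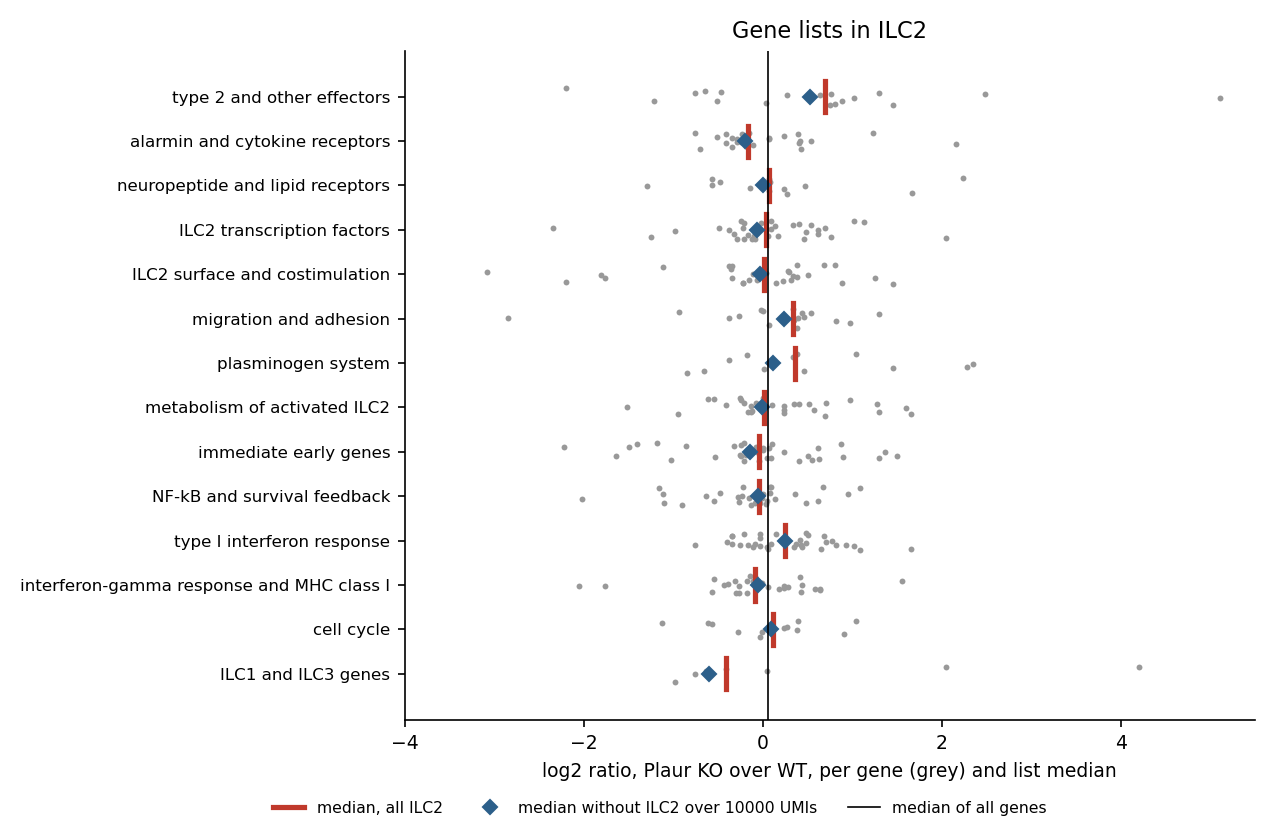
KO-labelled over WT-labelled log2 ratio in ILC2 for each gene with at least 10 UMIs (grey points) in 14 lists, with the median over all ILC2 (red bar), the median without the 5 ILC2 over 10000 UMIs (blue diamond) and the median of all genes (vertical line, 0.06). The effector list sits farthest to the right, at 0.69, and the ILC1 and ILC3 list, with 7 genes, farthest to the left, at -0.41.

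Plaur RNA was sparse in ILC2. It had 33 UMIs in 19 KO-labelled ILC2 (131 CPM) and 8 UMIs in 7 WT-labelled ILC2 (27.0 CPM), a log2 ratio of 2.28 (1.14 to 3.61). The shares of ILC2 with a Plaur UMI, 27.5% and 10.3%, were below those of B cells, 46.3% in the KO-labelled and 35.5% in the WT-labelled library, so by this measure they did not stand above background. B cells are not shown to lack Plaur, and the part of free RNA in the ratio was not tested. The plasminogen system list had 1 of 9 members past the limit upward, Plaur itself, and none downward. Its adaptor gene S100a10, a partner of annexin A2 in plasminogen binding, was level, with 202 UMIs in 57 KO-labelled and 236 in 51 WT-labelled ILC2 (0.01, -0.26 to 0.29).

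Outside the lists, the 8 highest genes, ranked by the interval bound nearest 0, were Scgb3a1, Reg3g, Ccl24, Tff2, Tgm2, Scgb3a2, Sdc4 and Mrc1, and the 8 with the lowest were Saa3, Chil3, Chil1, Cxcl15, Palld, Cd9, Vps37b and Pigr. Most are genes of airway epithelium or macrophages, and all but Tgm2, Palld and Vps37b owed most of their UMIs in the higher library to 1 barcode over 10000 UMIs. Palld, which encodes an actin-binding protein, had 121 UMIs in 12 KO-labelled ILC2 (482 CPM) and 360 UMIs in 22 WT-labelled ILC2 (1215 CPM), a log2 ratio of -1.33 (-1.64 to -1.03). At 1000 UMIs per cell, 10.1% of KO-labelled and 27.9% of WT-labelled ILC2 had it, against 0.501% and 0.177% of B cells unthinned. Vps37b, of the ESCRT-I sorting complex, had 29 UMIs in 18 KO-labelled and 90 in 34 WT-labelled cells (-1.40, -2.05 to -0.78). Tgm2, a transglutaminase, had 79 UMIs in 13 KO-labelled and 9 in 3 WT-labelled cells (3.37, 2.37 to 4.55), and stood at 360 CPM in other KO-labelled and 250 CPM in other WT-labelled barcodes.

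The same ranking was repeated without the 5 barcodes over 10000 UMIs, a choice made after their values were seen. Tgm2, Glb1, Srp19, Herc1, Pdia3, Hspa5, Hsp90ab1 and Ahcyl2 were then highest. Pdia3, Hspa5 and Hsp90ab1 encode chaperones, the first 2 of the endoplasmic reticulum. Hspa5 had 276 UMIs in 56 KO-labelled and 195 in 53 WT-labelled ILC2 (1099 and 658 CPM; 0.74, 0.47 to 1.01), and Pdia3 had 149 in 58 and 88 in 45 (1.00, 0.61 to 1.40). In other barcodes Hspa5 stood at 587 CPM in the KO-labelled and 505 CPM in the WT-labelled library, and Pdia3 at 236 and 242 CPM. Herc1, a large ubiquitin ligase, had 69 UMIs in 40 KO-labelled and 29 in 17 WT-labelled cells (1.49, 0.84 to 2.17), at 112 and 108 CPM in other barcodes.

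Mpp7, Palld, Vps37b, Npnt, Cmss1, Kpna1, Malt1 and Bach2 were lowest in the same ranking. Npnt, an integrin ligand, had 20 UMIs in 13 KO-labelled and 67 in 24 WT-labelled ILC2 (-1.51, -2.30 to -0.77). Bach2, a repressor of effector programmes in lymphocytes, had 101 UMIs in 36 and 207 in 44 cells (402 and 699 CPM; -0.80, -1.15 to -0.45). Bach2 was lower in the KO-labelled library outside ILC2 too, at 246 against 358 CPM in other barcodes and 1182 against 1476 CPM in B cells. Cmss1 had 326 UMIs in 68 KO-labelled and 733 in 68 WT-labelled cells (-0.93, -1.12 to -0.74), and in other barcodes it stood at 831 CPM in the KO-labelled and 1709 CPM in the WT-labelled library, so its difference was present outside ILC2 as well.

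The level in ILC2 was also set against the other barcodes of each library. Of the 4126 genes, 474 (11.5%) were at least 2-fold above the other barcodes in both libraries. With the genes of the rule left out, the lists of effectors (8 of 12), neuropeptide and lipid receptors (9 of 12), surface genes (14 of 27) and transcription factors (14 of 31) held more such genes than that share, and the type I interferon list held 1 of 25. The cells were chosen on their RNA, so these counts describe them and test nothing.

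The genes highest over other cells outside the rule included Moxd1, Dach2, Stab2, Kcnd2, Igsf5, Amph, Pard3, Hlf, Thsd4, Cntn1, Rab27b, Nrgn and Asb2. Dach2, a transcriptional cofactor, was the most abundant, with 435 UMIs in 46 KO-labelled ILC2 (1732 CPM) and 373 UMIs in 44 WT-labelled ILC2 (1259 CPM), against 3.33 and 2.07 CPM in other barcodes. In T cells it stood at 2.59 CPM in the KO-labelled and 2.25 CPM in the WT-labelled library. In Cd3e barcodes with at least 3 of the 10 genes it stood at 37.7 and 23.8 CPM, from 9 and 4 UMIs. Stab2, a scavenger receptor gene known from sinusoidal endothelium, had 71 UMIs in 20 and 103 in 21 ILC2. Of the endothelial markers, Pecam1 had 11 UMIs in 8 KO-labelled and 14 in 10 WT-labelled ILC2, and Cdh5 was at 0. Moxd1, a monooxygenase gene, had 27 and 32 UMIs in 14 cells each, and 0.0424 and 0.165 CPM in other barcodes. Also among the 20 highest were Csf2, Il4 and Palld, given above, the predicted genes 1700113H08Rik and Gm6213, and Cyp2f2, which lay in the 1 largest barcode of each library. Il4 was not particular to ILC2: it stood at 155 CPM in KO-labelled and 243 CPM in WT-labelled ILC2. In barcodes with at least 3 of the 10 genes and a Cd3e UMI it stood at 373 and 303 CPM. Asb2 stood at 62.9 and 59.5 CPM there, against 314 and 280 CPM in ILC2. Nrgn stood at 50.3 and 5.95 CPM there, against 59.7 and 125 CPM in ILC2, while Moxd1 and Stab2 had 0 UMIs there.

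Surface ST2 was read by an antibody tag, which the rule did not use. Its barcode sequence is shown because the protein readout rests on counting it, in lower case with no part marked.
ST2 antibody tag: gcgatggagcatgtt
KO-labelled ILC2 carried a mean of 2.16 ST2 tag UMIs per cell (Poisson interval 1.83 to 2.54) and WT-labelled ILC2 2.43 (2.07 to 2.83). B cells carried 0.898 in the KO-labelled and 0.798 in the WT-labelled library, and all other barcodes 0.894 and 0.798, so the tag stood above its background in the ILC2 of both libraries. At least 1 tag was present on 73.9% of KO-labelled and 77.9% of WT-labelled ILC2, against 48.6% and 41.9% of B cells, and at least 3 on 33.3% and 41.2% of ILC2, against 9.74% and 7.78% of B cells.

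Set against B cells within each library, the log2 ratio of the ILC2 mean was 1.265 in the KO-labelled and 1.604 in the WT-labelled library. The difference was -0.34 (-0.67 to -0.0098, with the B cell means taken as fixed), and without the ratio to B cells it was -0.17 (-0.50 to 0.16). Il1rl1 RNA was higher in the same KO-labelled cells, at 0.40. Cells with at least 5 Il1rl1 UMIs carried a mean of 2.80 tags in 35 KO-labelled and 2.71 in 28 WT-labelled ILC2, and those with fewer carried 1.5 in 34 and 2.23 in 40. The tag was present on 30 of the 35 and 21 of the 34 KO-labelled cells, and on 22 of the 28 and 31 of the 40 WT-labelled cells. The 7 KO-labelled and 6 WT-labelled ILC2 without Il1rl1 RNA averaged 0.571 and 1.00 tags.

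**Figure D5:**
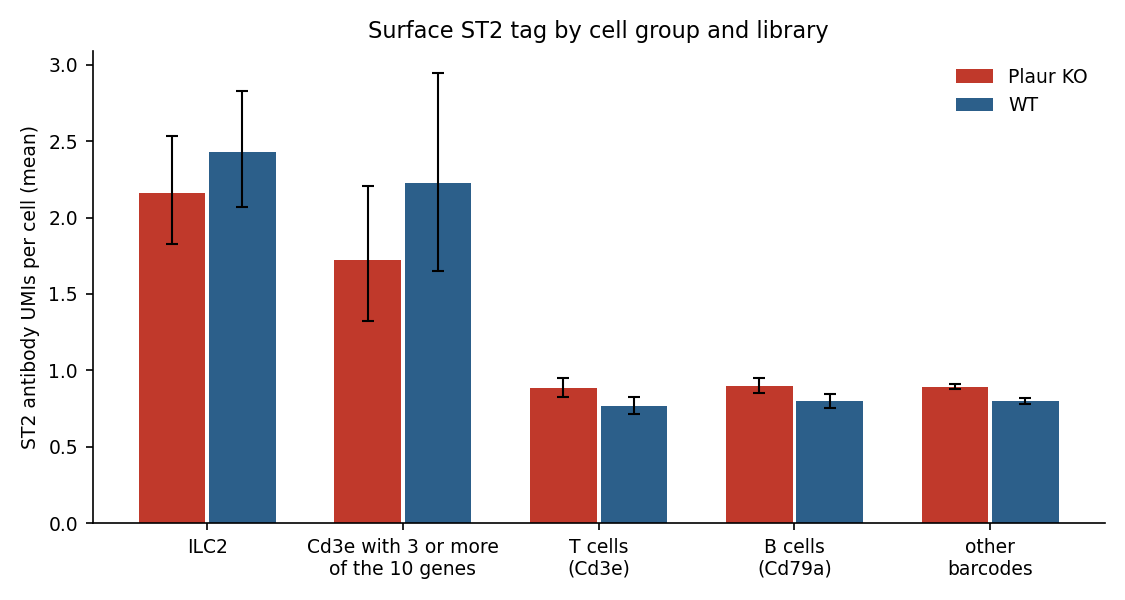
Mean ST2 antibody UMIs per cell with 95% Poisson intervals for ILC2, Cd3e barcodes with at least 3 of the 10 genes, T cells, B cells and all other filtered barcodes, KO-labelled left and WT-labelled right of each pair. ILC2 lie at 2.16 and 2.43, and T and B cells between 0.769 and 0.898.

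Of the other antibodies, CD11b marks myeloid cells and averaged 7.101 UMIs on KO-labelled and 5.99 on WT-labelled ILC2, against 27.1 and 22.02 on B cells. The medians lay closer together, at 4 and 3 on ILC2 and 5 and 4 on B cells. Single B cell barcodes held up to 1156 tags in the KO-labelled and 2157 in the WT-labelled library. The Ly-6C tag averaged 16.8 on KO-labelled and 9.26 on WT-labelled ILC2, but also 25.1 and 12.2 on B cells, so the raw difference followed the library, and relative to B cells the KO-labelled minus WT-labelled difference was -0.19 (-0.33 to -0.05).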

How the data were processed

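Whole-number UMI counts per gene and per antibody tag were deposited by the authors as filtered matrices, not normalized. The matrices come from Cell Ranger 7.0.0, per the file headers, and the submitters' processing notes name Cell Ranger 7.1.0 and 7.0.0 and the mouse build mm10. The ILC2 rule, the gene lists and the tests were chosen with earlier results of these data known.

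Barcodes were kept at 200 genes or more and 10% mitochondrial UMIs or less. Counts were summed over the ILC2 of each library and divided by their total. CPM have exact Poisson intervals, shares have exact Clopper-Pearson intervals, and log2 ratios have exact conditional binomial intervals, all at 95%. A sum of 0 was set to a floor of 3 UMIs for a ratio, per library sum. No test was run, each genotype having 1 library, and cells were not used as replicates. Genes needed 20 UMIs over both sums for the 2-fold limit and 10 for list medians. Named genes were those of the rule, list members with 20 UMIs, Plaur, the 8 highest and 8 lowest other genes at 50 UMIs, and the 20 highest over other cells. B cells were barcodes with Cd79a and no Cd3e, and T cells those with Cd3e. Antibody means were set against B cells of the same library.

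Doublets were called with Scrublet in scanpy 1.11.5 (expected 8%) and kept. Scaling factors came from edgeR 4.0.16 (TMM) and DESeq2 1.42.0. The calculations were tested on simulated Poisson counts with known changes. These lack the crowding of UMIs in single cells, so how the intervals hold under crowding was not tested. Alternatives covered the rule, the filters, the scaling and thinning to 1000 UMIs per cell, and those leaving out barcodes over 10000 UMIs or with T cell UMIs were chosen after seeing the data. Promoter windows and gene positions are from RefSeq, GRCm38.p6. Intervals cover counting error only. A gene that the naming rule selects over other cells is not reported here.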

Additional observations from a re-analysis of the deposited data

How the results depend on the processing

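No paired analysis was possible because each genotype had 1 library. For the same reason no library could be left out. Of 12 alternatives, 4 (doublet calls, 500 genes, 5% mitochondrial UMIs, 50 UMIs) altered no value of the 45 named genes. Under the other 8, 332 of 360 values stayed within the main interval, 23 moved out of it and 5 reversed. The reversed log2 ratios were Il4 at 0.62 when each excluded gene was allowed 1 UMI, Tnfrsf4 at 1.07 without barcodes over 10000 UMIs or with T cell UMIs, Il5 at 0.084 and Gclc at 0.20 in thinned cells, and Gclc at 0.12 without the 2 highest cells per library. The cause was not tested. Of the 151 list medians under alternatives, 30 had the other sign.

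The count of genes past the 2-fold limit, 206 higher and 155 lower, was 39 and 29 at 50 UMIs, 45 and 47 in thinned cells, and 136 and 98 without the 2 highest cells per gene, each with fewer genes tested. Without barcodes over 10000 UMIs or with T cell UMIs, 101 were lower. Genes over other cells numbered 299 at 50 UMIs and 291 against T cells, in place of 474. The difference in median ST2 tags was -1 on the log2 scale, from medians of 1 in KO-labelled and 2 in WT-labelled ILC2. The log2 ratio of ILC2 shares lay between -0.15 and 0.18. With 69 and 68 cells, genes with few UMIs have wide intervals.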

Other observations

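Barcodes that met the 10-gene criterion but had a Cd3e UMI numbered 36 in the KO-labelled and 22 in the WT-labelled library, and were not ILC2 by the rule. They had 82 Il13 UMIs in the KO-labelled and 110 in the WT-labelled library (344 and 654 CPM), 54 and 34 of Il5 (226 and 202 CPM), and 120 and 220 of Areg (503 and 1308 CPM). Il4 had 89 and 51 UMIs in them (373 and 303 CPM). Their ST2 tag averaged 1.72 UMIs per cell in the KO-labelled and 2.23 in the WT-labelled library.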
